A study of Mus musculus with 8 samples.

Results

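The genes examined here encode 9 parts of the route from phosphoinositide 3-kinase (PI3K) through AKT to mTOR: Pik3cd, Pik3r1, Pik3ap1, Inpp5d, Akt1, Tsc1, Tsc2, Mtor and Rptor. They were taken by symbol from the 24259 gene symbols of the count table, and all 9 were present and passed the filter on low counts, which left 12744 genes for testing. RNA was sequenced from mouse lymph node B cells that bound the hapten NP and were IgD-low and B220-positive, which are antigen-activated cells on their way into germinal centers (pre-GC B cells). All recipients were CD45.1 Sap-/- mice (strain given as C57BL/6), whose own T cells are poor helpers for lack of the adaptor SAP, and were immunized with NP-OVA plus LPS in alum 3 days before the sort. Help came from transferred ovalbumin-specific OT-II T cells, which were CD4-CrexBcl6fl/+ for the HET group (1 floxed Bcl6 allele) and CD4-Cre for the WT group. CD4-Cre deletes in T cells, so the sequenced B cells, which came from the recipients, carried no Bcl6 deletion. The Bcl6 deletion therefore cannot be checked in them. The B cells of both groups shared the Sap-/- genotype of the recipients. Age and sex of the mice were not given. Each group had 4 libraries of about 200 cells, all sorted from 1 pool of recipients per group. The spread within a group is therefore technical, p-values measure that spread, and pool and group cannot be told apart.

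In B cells, the antigen receptor and its coreceptors recruit PI3K delta, whose lipid product brings AKT to the membrane. AKT then inactivates the TSC complex, which otherwise holds mTORC1 in check, and excludes FOXO factors from the nucleus. The pathway is known for supporting survival, growth and metabolism of activated B cells, and its strength has to be tuned as B cells enter the germinal center and compete for T cell help. Much of this control acts on protein phosphorylation, which was not measured here. The comparison asks whether the transcripts of the pathway differed when the helper T cells had a single intact Bcl6 allele.

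Total counts ranged from 6652386 to 12559189 per library, so that 3 counts corresponded to 0.241 to 0.455 CPM (counts per 1000000 after TMM scaling). The B cell identity of the sort was visible in all 8 libraries. The 8 B cell markers (among them Cd79a, Cd79b, Ms4a1, Cd22, Pax5 and Ebf1, as well as Ptprc, which other leukocytes share) were present in each and summed to 10529.5 to 11719 CPM in HET and 12281 to 13312 CPM in WT. All 8 were lower in HET, 7 of them with an unadjusted p under 0.05 (3.88% of all genes tested were lower at this p) and none after adjustment over all genes in edgeR, while DESeq2 called 1, Cd22 (adjusted p = 0.0159), which was named after its values were seen. T cell markers summed to 369 to 657 CPM in HET and 214 to 524 CPM in WT, with all 11 tested genes higher in HET and none at an unadjusted p under 0.05. Cd4 was at 0 to 7 counts, whereas Cd8b1 was at 117 to 950 counts and Lck at 732 to 1489 counts. Myeloid markers summed to 33.8 to 109 CPM in HET and 35.7 to 447 CPM in WT, where Lyz2 gave 399 CPM of the highest sum. Fcgr1 was at 0 in 7 of 8 libraries. Of 7 tested myeloid markers, 3 were higher and 4 lower in HET. Flt3 was higher and Csf1r lower with an unadjusted p under 0.05 (28.6% beside 7.22% of all genes tested). Flt3 lay at 15.6 to 26.1 CPM in HET and 5.80 to 12.3 CPM in WT. Neither passed adjustment in edgeR, while DESeq2 called Flt3 (adjusted p = 0.0147). Both were named after their values were seen. Antibody-secreting cell markers summed to 294 to 2095 CPM in HET, with HET replicate 1 highest (1576 CPM of it Jchain), and 241 to 526 CPM in WT. The part of these transcripts in the values below was not tested, and in bulk libraries fewer cells of a type and less RNA per cell cannot be told apart.

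Differences are given as log2 fold changes of HET against WT from edgeR, with p-values adjusted over all 12744 genes by the Benjamini-Hochberg method. Of the 9 genes, 0 had an adjusted p under 0.05, beside 0.0235% of all genes tested. At an unadjusted p under 0.05 there were 2, beside 7.22% of all genes: Tsc2 was higher in HET (as were 3.34% of all genes) and Pik3r1 lower (as were 3.88%). DESeq2 gave 0 calls and the same count of 2 unadjusted. For 0 of the 9 did the groups not overlap, against 4.61% of all genes tested. Fitted values were lower in HET for 6 of the 9 and higher for 3, with a median log2 fold change of -0.05 beside -0.0014 over all genes tested. No difference among the 9 held after correction over all genes. The 95% interval given with each gene measures technical spread between libraries of the pools, and does not bound an effect of the helper genotype.

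The 2 genes with an unadjusted p under 0.05 differ in the layout of their starts, and the sequences around these are shown for that reason (RefSeq annotation, GRCm38.p6). Each stretch runs 5′ to 3′ on the gene's minus strand and ends 30 bases into the transcript. The Tsc2 stretch (chr17:24632598-24632711) lies between Tsc2 and Nthl1, a DNA glycosylase gene that runs the opposite way from a start only 55 bases away, and also holds the first 30 bases of Nthl1. The Pik3r1 stretches belong to 2 starts that are 75587 bases apart (chr13:101768188-101768467 and chr13:101692601-101692880), and the gene-level counts add up transcripts from both. Capitals mark the ETS core CCGGAAG and the GC box GGGCGG, searched on both strands, which do not overlap each other in these windows.
Tsc2: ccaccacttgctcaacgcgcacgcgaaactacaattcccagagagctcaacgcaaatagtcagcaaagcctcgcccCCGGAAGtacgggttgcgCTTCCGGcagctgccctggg
Pik3r1, upstream start: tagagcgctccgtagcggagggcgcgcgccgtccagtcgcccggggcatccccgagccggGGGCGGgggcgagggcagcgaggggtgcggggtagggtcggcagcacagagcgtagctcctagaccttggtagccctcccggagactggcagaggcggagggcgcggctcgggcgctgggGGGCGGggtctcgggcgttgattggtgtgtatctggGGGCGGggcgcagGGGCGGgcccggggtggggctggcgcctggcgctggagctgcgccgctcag
Pik3r1, internal start: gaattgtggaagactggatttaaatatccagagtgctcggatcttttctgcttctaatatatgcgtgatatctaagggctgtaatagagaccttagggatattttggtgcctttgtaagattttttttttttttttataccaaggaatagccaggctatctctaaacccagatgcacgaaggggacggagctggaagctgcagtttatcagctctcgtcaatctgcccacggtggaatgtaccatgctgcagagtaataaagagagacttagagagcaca
The Tsc2 stretch held 2 ETS cores, in opposite orientation on the 2 sides of the Tsc2 start. Of all 32851 promoter windows of 300 bases (250 before and 50 after a start), 8.86% held this motif, and among the 13 windows of the 9 genes it occurred in those of Mtor and Tsc2. The upstream Pik3r1 stretch had 4 GC boxes and 76.8% G and C, and the internal one had 0 GC boxes and 41.8% G and C. The GC box was found in 35.7% of all windows and in windows of Akt1, Mtor, Pik3cd and Pik3r1. The E-box CACGTG (7.15% of all windows) occurred at Pik3ap1, and the FOXO core GTAAACA (3.65% of all windows) at Akt1. These matches describe letters in the windows and no factor was measured.

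Levels of different genes were compared as TPM (transcripts per 1000000, from counts divided by exon length). Pik3ap1, which encodes the adaptor BCAP that links antigen receptor signals to PI3K, was highest, with 78.9 ± 6.66 TPM (SD, n = 4) for HET and 84.2 ± 15.3 TPM (SD, n = 4) for WT. Pik3cd, the catalytic subunit p110 delta of leukocytes, followed with 62.5 ± 7.91 TPM (SD, n = 4) for HET and 66.5 ± 14.4 TPM (SD, n = 4) for WT. Inpp5d, the phosphatase SHIP1 that removes the PI3K product, came next with 47.8 ± 3.90 TPM (SD, n = 4) and 57.7 ± 6.96 TPM (SD, n = 4), respectively. These 3 receptor-proximal genes lay at the 82.4th to 88.3rd percentile of the tested genes.

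The remaining genes were clearly lower. The highest value of Akt1 in any library was 28.1 TPM and the lowest of Inpp5d was 43.02 TPM, the only step in the order without overlap. Akt1 averaged 18.2 TPM in HET and 21.8 TPM in WT. Mean levels over all 8 libraries were 11.4 TPM for Pik3r1, 8.38 TPM for Tsc2, 6.00 TPM for Mtor, 4.65 TPM for Tsc1 and 3.79 TPM for Rptor, the last at the 21.9th percentile of tested genes. From Akt1 on, neighbors in this order overlapped in their ranges over the libraries, and no test was run between them. Akt1 exceeded Pik3r1 in 7 of 8 libraries, Pik3r1 exceeded Tsc2, Tsc2 exceeded Mtor and Mtor exceeded Tsc1 in 6 of 8, and Tsc1 exceeded Rptor in 5 of 8. With the length of the longest transcript, the first 6 ranks stayed and Mtor moved from rank 7 to rank 9. The order depends on the length used: in the deposited TPM, whose gene lengths include introns, Pik3cd was at rank 1 (17.7 TPM), Akt1 at rank 2 (10.5 TPM), Inpp5d at rank 3 (9.79 TPM) and Pik3ap1 at rank 6 (6.61 TPM).

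**Figure D1:**
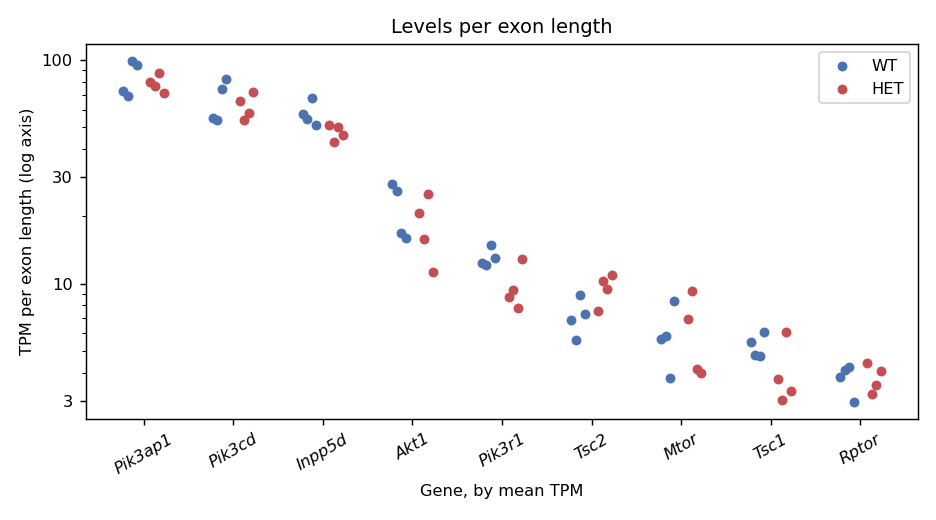
TPM per exon length (log axis) of the 9 genes, ordered by their mean, with 1 point per library (WT blue, HET red, 4 libraries each). The 3 leading genes lie between 43.02 and 99.2 TPM in every library, and the other 6 between 2.96 and 28.1 TPM.

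Within their families, the genes differed in how far they dominated. Pik3cd supplied 83.0% ± 1.52 (SD, n = 4) of the transcripts of the 4 class I catalytic subunits in HET and 77.6% ± 2.97 (SD, n = 4) for WT. The single libraries were at 82.6, 82.5, 81.8 and 85.2% in HET and at 74.8, 78.8, 75.7 and 81.3% in WT, so that every HET library lay above every WT library. This was the smallest p that 4 against 4 libraries can give (two-sided exact permutation p = 0.0286), and the adjusted p over the 6 families was 0.171. A share that is alone at this smallest p cannot pass 0.05 after adjustment over 6 families, so the adjusted p decides nothing here. The next subunit was Pik3cg, p110 gamma, which couples to G-protein-coupled receptors, with 8.22 ± 1.14 TPM (SD, n = 4) for HET and 13.9 ± 4.24 TPM (SD, n = 4) for WT. Between the groups, Pik3cd itself had a log2 fold change of -0.05 (edgeR adjusted p = 0.970) and Pik3cg of -0.71 (edgeR adjusted p = 0.527). Pik3ca stood at 4.51 TPM on average and Pik3cb at 0.303 TPM, with 1 to 49 counts of Pik3cb in any library.

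Tsc1 and Tsc2 encode hamartin and tuberin, the partners that together switch off RHEB, the GTPase that activates mTORC1. Tsc1 made up 33.2, 22.7, 39.04 and 23.1% of their joint transcripts in HET and 44.1, 46.04, 34.95 and 45.2% in WT. WT replicate 3 was the lowest WT library and fell within the HET range, and HET replicate 3 was the highest HET library. The means were 29.5% ± 7.99 (SD, n = 4) and 42.6% ± 5.14 (SD, n = 4), with a two-sided exact permutation p of 0.0571 and an adjusted p of 0.171.

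The groups overlapped for the shares of Pik3r1 and Rptor. Pik3r1 made up about as much of the regulatory subunits as the other genes together, with 54.4% ± 15.3 (SD, n = 4) for HET and 52.05% ± 7.71 (SD, n = 4) for WT. Pik3r2 (p85 beta) was at 10.5 TPM on average beside 11.4 TPM for Pik3r1, and Pik3r3 was at 0 to 10 counts. Rptor, which defines mTORC1, made up 54.97% ± 9.51 (SD, n = 4) of its sum with Rictor, which defines mTORC2, in HET and 54.4% ± 9.23 (SD, n = 4) for WT. The exact permutation p was 0.857 for Pik3r1 and 0.914 for Rptor, and the adjusted p of both was 0.914. The size of a share depends on the length used. Averaged over all libraries, the Pik3r1 share was 53.2% by exon length, 30.2% in the deposited TPM and 72.6% in counts. The Rptor share was 54.7%, 31.9% and 49.1% by these measures, the Tsc1 share 36.04%, 22.2% and 40.8%, and the Pik3cd share 80.3%, 71.5% and 74.9%.

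**Figure D2:**
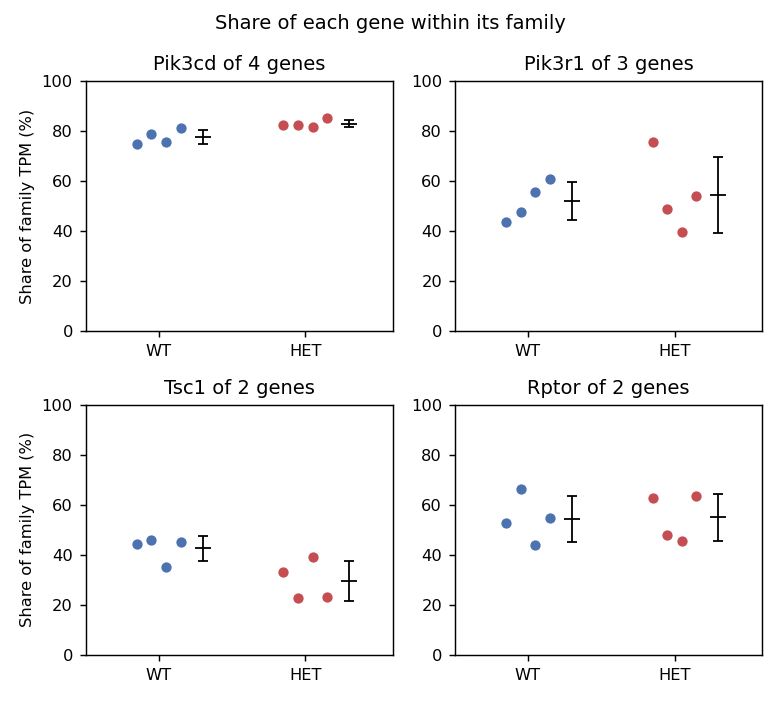
Share of each gene in the summed TPM of its family (%), by group, with 1 point per library and the mean with its SD beside them. Pik3cd lies between 81.8 and 85.2% in HET and between 74.8 and 81.3% in WT, and the points of the other 3 families overlap between groups.

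The genes were then compared between the groups, beginning with the PI3K subunits and adaptor. Positions are those of GENCODE M21 on GRCm38, and counts cover all exons of a gene. Pik3cd (chr4:149649168-149702571, minus strand) was measured at 202, 154, 167 and 206 CPM in HET and 159, 154, 204 and 237 CPM in WT. The groups covered the same range, and the log2 fold change was -0.05 (95% interval -0.37 to 0.27, edgeR adjusted p = 0.970). Pik3ap1 (chr19:41272377-41385102, minus strand) was measured at 219, 194, 222 and 183 CPM in HET and 188, 177, 241 and 243 CPM in WT. It overlapped as well, with a log2 fold change of -0.05 (95% interval -0.32 to 0.22, edgeR adjusted p = 0.958). For both genes the interval lay within folds of 0.774 to 1.21. Together with Inpp5d they had the narrowest intervals of the 9, which measure technical spread only.

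Pik3r1 (chr13:101680563-101768217, minus strand) encodes the regulatory subunits of class IA PI3K, which stabilize and restrain the catalytic subunit. It was measured at 43.01, 43.1, 35.7 and 59.4 CPM in HET and 57.9, 55.6, 65.2 and 60.2 CPM in WT. Of the HET libraries, 3 lay below every WT library and HET replicate 4 lay within the WT range. On the log2 scale the fold change was -0.40 (SE 0.18, 95% interval -0.78 to -0.01, unadjusted p = 0.0436, edgeR adjusted p = 0.667). Without HET replicate 4 the log2 fold change was -0.55 and the unadjusted p 0.00688 (edgeR adjusted p = 0.595). Leaving out each of the 8 libraries in turn, the unadjusted p was under 0.05 in 2 cases and the log2 fold change lay between -0.55 and -0.30.

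Inpp5d (chr1:87620312-87720507, plus strand) was measured at 192, 149, 175 and 162 CPM in HET and 203, 190, 224 and 178 CPM in WT. HET replicate 1 was the only HET library within the WT range, and the other 3 were below it. On the log2 scale the fold change was -0.23 (SE 0.11, 95% interval -0.48 to 0.02, unadjusted p = 0.0646, edgeR adjusted p = 0.714). The B cell markers were lower in HET with a median log2 fold change of -0.23. Of the 9 genes, 6 were lower as well: Inpp5d, Pik3r1, Akt1 (-0.22), Tsc1 (-0.35), and Pik3cd and Pik3ap1 (each -0.05). The other 3 were higher. The part of the B cell markers in these values was not tested.

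Akt1 (chr12:112653821-112674884, minus strand) encodes the most widely expressed AKT kinase. It was measured at 41.6, 29.7, 46.9 and 21.1 CPM in HET and 53.3, 48.9, 30.3 and 30.06 CPM in WT. Values varied within a group as much as between groups, with a coefficient of variation of 33.5% in HET and 30.1% in WT, where counting alone would give 6.46% and 5.36%. The log2 fold change was -0.22 (95% interval -0.82 to 0.37, edgeR adjusted p = 0.908).

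Tsc2 (chr17:24595816-24632630, minus strand) was measured at 35.5, 45.2, 41.6 and 48.4 CPM in HET and 30.8, 24.7, 37.2 and 32.4 CPM in WT. Of the HET libraries, 3 lay above every WT library, and HET replicate 1 lay below WT replicate 3. On the log2 scale the fold change was 0.45 (SE 0.20, 95% interval 0.02 to 0.87, unadjusted p = 0.0409, edgeR adjusted p = 0.657), the largest in size among the 9. With single libraries left out it lay between 0.35 and 0.55, and its unadjusted p was under 0.05 in 2 of the 8 cases. Tsc1 (chr2:28641228-28691167, plus strand) was lower in HET on average, at 21.6, 16.3, 32.8 and 17.9 CPM in HET and 29.9, 25.9, 24.6 and 32.8 CPM in WT. Its 3 lowest HET libraries were below every WT library and HET replicate 3 (32.81 CPM) was just above the highest WT library (32.78 CPM), with a log2 fold change of -0.35 (95% interval -0.91 to 0.20, edgeR adjusted p = 0.820). Without HET replicate 3 the log2 fold change of Tsc1 was -0.60 with an unadjusted p of 0.0309 (edgeR adjusted p = 0.765).

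The neighbors of Tsc2 were read for the same libraries. Nthl1, which starts beside Tsc2, was at 0.777 to 3.49 CPM in HET and 0.505 to 8.74 CPM in WT, with a log2 fold change of -0.69 (95% interval -2.31 to 0.93, edgeR adjusted p = 0.891). Pkd1, which runs toward Tsc2 on the opposite strand and shares 693 exon bases with its end, was at 6.995 to 20.97 CPM in HET and 10.7 to 17.3 CPM in WT, with a log2 fold change of -0.06 (edgeR adjusted p = 0.981). The strand setting of the counting was not given in the sources used here, and how reads from the shared bases of Tsc2 and Pkd1 were assigned was not tested.

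Mtor (chr4:148448611-148557683, plus strand) encodes the kinase of both mTOR complexes. It was measured at 34.6, 42.7, 19.2 and 18.5 CPM in HET and 26.4, 26.9, 16.7 and 38.6 CPM in WT. It was the most variable of the 9, with a coefficient of variation of 41.5% in HET and 33.1% in WT against 7.31% and 6.64% from counting, and its log2 fold change of 0.08 had a 95% interval of -0.60 to 0.77 (edgeR adjusted p = 0.977). Rptor (chr11:119602905-119899576, plus strand), the subunit that presents substrates to mTOR in mTORC1, was measured at 29.02, 19.7, 21.6 and 25.02 CPM in HET and 23.9, 25.4, 24.9 and 18.3 CPM in WT. The groups overlapped and the log2 fold change was 0.05 (95% interval -0.45 to 0.55, edgeR adjusted p = 0.980).

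**Figure D3:**
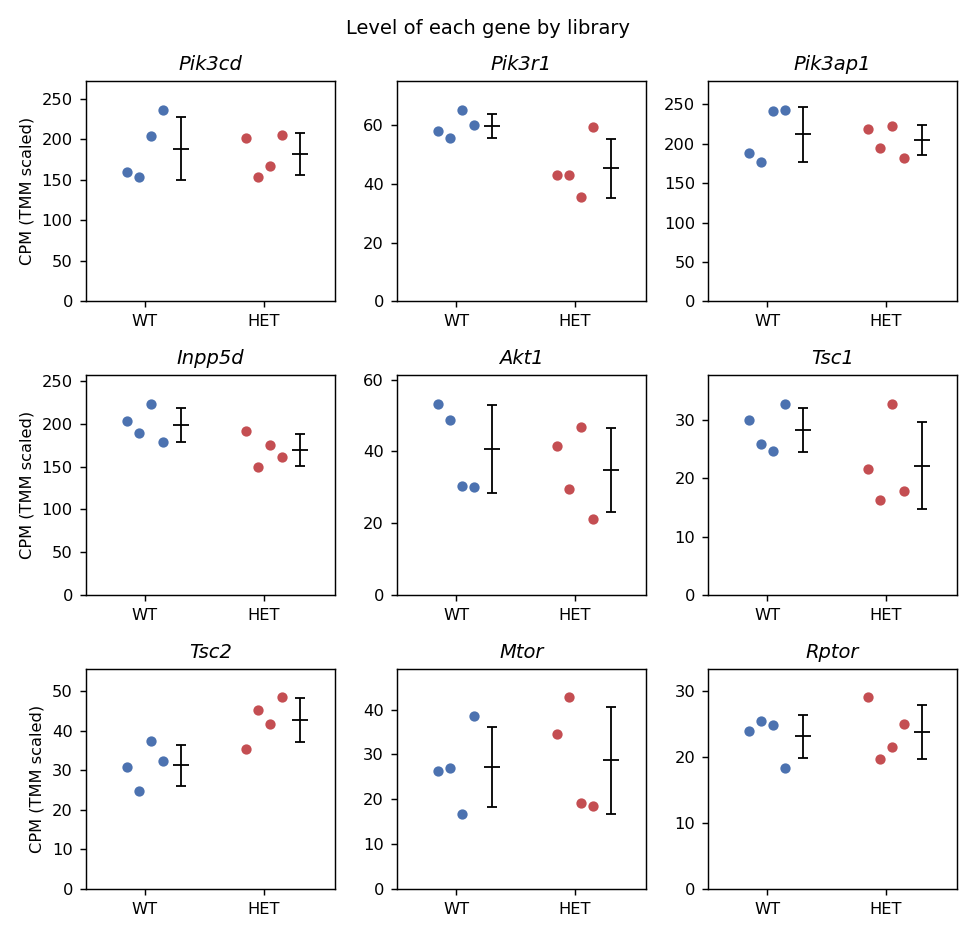
CPM (TMM scaled, axes from 0) of each of the 9 genes by group, with 1 point per library and the mean with its SD beside them. Tsc2 has 3 HET libraries above all WT libraries. Pik3r1, Inpp5d and Tsc1 have 3 HET libraries below all WT libraries, and for Tsc1 the remaining HET library lies just above them. The groups overlap for all 9 genes.

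The rest of the pathway was read from lists grouped by role, which hold 107 further genes, of which 100 were in the table and 91 were tested. Some genes stand in more than 1 list and count once in these totals. Of these 91, 0 had an adjusted p under 0.05 in edgeR, and 6 had an unadjusted p under 0.05, 2 higher and 4 lower in HET (6.59% beside the 7.22% of all genes tested). The groups did not overlap for 4 of the 91 (4.40% beside 4.61%). The median log2 fold change was -0.01. DESeq2 called 1 of the 91, Klf2, where it called 0.687% of its genes.

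Among the other PI3K subunits and adaptors, 8 of 13 genes were tested, 3 higher and 5 lower in HET, with a median log2 fold change of -0.22. Pik3cg had the only unadjusted p under 0.05 (12.5% of the 8, beside 7.22% of all genes tested). It was measured at 35.4, 26.04, 30.9 and 36.7 CPM in HET and 48.6, 34.6, 70.04 and 57.9 CPM in WT, and only WT replicate 2 lay within the HET range. The fold change was -0.71 on the log2 scale (SE 0.23, unadjusted p = 0.00718, edgeR adjusted p = 0.527). Pik3r2 followed with a log2 fold change of -0.48 (edgeR adjusted p = 0.835).

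The lists for phosphatases, AKT and the TSC complex held no gene with an unadjusted p under 0.05. Of 9 lipid and AKT phosphatases, 7 were higher and 2 lower in HET, with a median of 0.22, and the lowest p belonged to Inpp5k, a 5-phosphatase, with a log2 fold change of -0.28, and Inpp4b with 0.37 (edgeR adjusted p = 0.709 and 0.864). Of 8 tested AKT kinases, activators and substrates, 2 were higher and 6 lower with a median of -0.16. Pdpk1, the kinase PDK1 that activates AKT, had a log2 fold change of -0.26 (edgeR adjusted p = 0.848). Of 9 tested genes for TSC partners, RHEB and stress inputs, 2 were higher and 7 lower with a median of -0.06. Sesn1, a sestrin that restrains mTORC1, had a log2 fold change of -0.10 and Stk11, the kinase LKB1 upstream of AMPK, of 0.22 (edgeR adjusted p = 0.889 and 0.891).

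Of 9 tested further subunits and assembly factors of the mTOR complexes, 4 were higher and 5 lower with a median of -0.0040. Akt1s1, which encodes PRAS40, an inhibitor of mTORC1 that AKT phosphorylates, was measured at 18.9, 12.95, 15.6 and 24.6 CPM in HET and 18.6, 34.9, 32.4 and 24.6 CPM in WT. The groups overlapped, with a log2 fold change of -0.62 and an SE of 0.28 (unadjusted p = 0.0447, edgeR adjusted p = 0.669). Telo2, needed for the assembly of mTOR complexes, was at 0.47 on the log2 scale (edgeR adjusted p = 0.706).

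The amino acid arm, through which the RAG GTPases and the Ragulator and GATOR complexes bring mTORC1 to the lysosome, had 24 of 27 genes tested, 14 higher and 10 lower in HET with a median of 0.17. In this arm, 2 genes had an unadjusted p under 0.05 (8.33% of the 24, beside 7.22% of all genes tested). Kptn, a subunit of KICSTOR, which anchors the GATOR1 inhibitor of mTORC1, was measured at 43.7, 29.7, 31.8 and 28.8 CPM in HET and 18.6, 23.2, 18.6 and 20.5 CPM in WT, with a log2 fold change of 0.73 and an SE of 0.22 (unadjusted p = 0.00567, edgeR adjusted p = 0.492). Castor1, an arginine sensor that restrains mTORC1, was lower in level, at 7.56, 9.59, 10.5 and 6.82 CPM in HET and 3.33, 4.88, 2.52 and 3.13 CPM in WT, with a log2 fold change of 1.31 and an SE of 0.42 (unadjusted p = 0.00748, edgeR adjusted p = 0.535). For both genes every HET library lay above every WT library. Depdc5, a GATOR1 subunit named after its values were seen, was the other gene of this arm without overlap. Genes without overlap thus made up 12.5% of the 24, beside 4.61% of all genes tested. Depdc5 lay at 11.7 to 16.7 CPM in HET and at 17.5 CPM or more in WT with an unadjusted p of 0.157 (edgeR adjusted p = 0.798).

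Downstream, 15 of 17 substrates and translation effectors of mTORC1 were tested, 7 higher and 8 lower in HET with a median of -0.0048, and 0 had an unadjusted p under 0.05. Pdcd4, a translation inhibitor, and Rps6kb1, the S6 kinase, had the lowest p, with log2 fold changes of -0.22 and -0.21 (edgeR adjusted p = 0.773 and 0.818). Of 13 tested genes known to be raised by FOXO factors, which AKT restrains, 5 were higher and 8 lower in HET with a median of -0.05. Among the higher genes was Il7r (log2 fold change 0.24), which also served as a T cell marker and was named after its values were seen. Klf2, a quiescence and trafficking factor of resting lymphocytes, was measured at 190, 140, 133 and 186 CPM in HET and 300, 219, 253 and 226 CPM in WT. No HET library reached the lowest WT library. Klf2 was the only gene of the 13 without overlap (7.69%, beside 4.61% of all genes tested). Its log2 fold change was -0.62 (SE 0.14, unadjusted p = 0.000725, edgeR adjusted p = 0.234), and DESeq2 gave an adjusted p of 0.0159. Foxo1 itself had a log2 fold change of -0.15 (95% interval -0.56 to 0.27, edgeR adjusted p = 0.912), and was named after its values were seen.

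**Figure D4:**
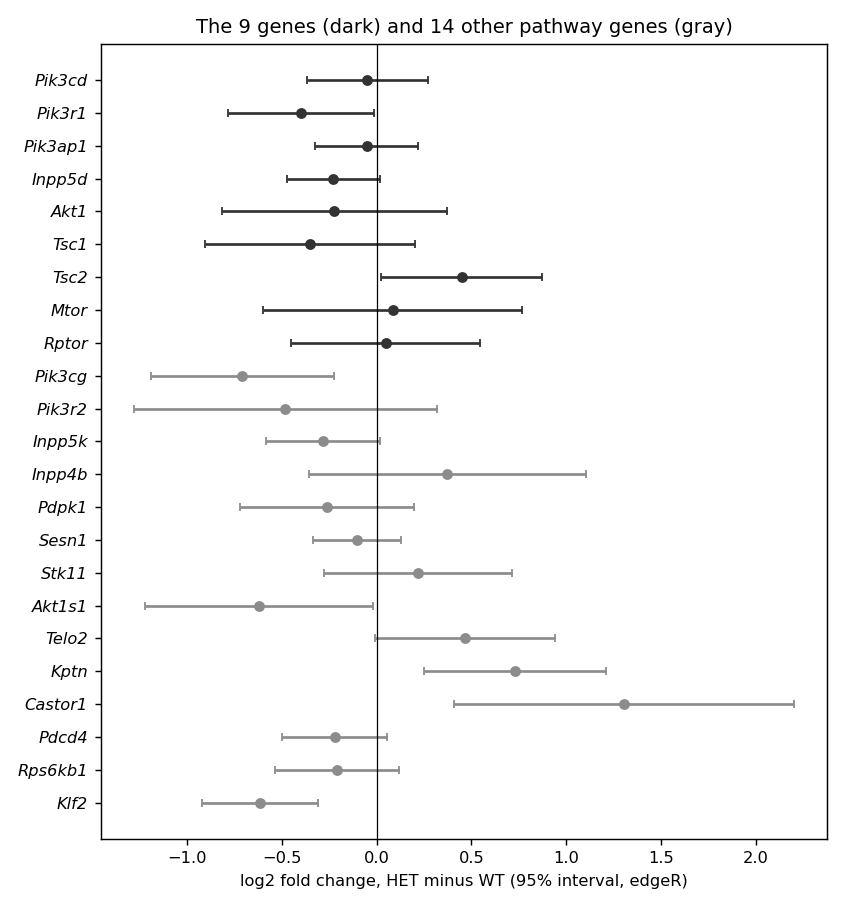
Log2 fold change of HET against WT with its 95% interval (edgeR) for the 9 genes (dark) and 14 pathway genes named by rule (gray). The intervals of Pik3r1 and Tsc2 are the only ones of the 9 that leave out 0, before any adjustment.

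**Figure D5:**
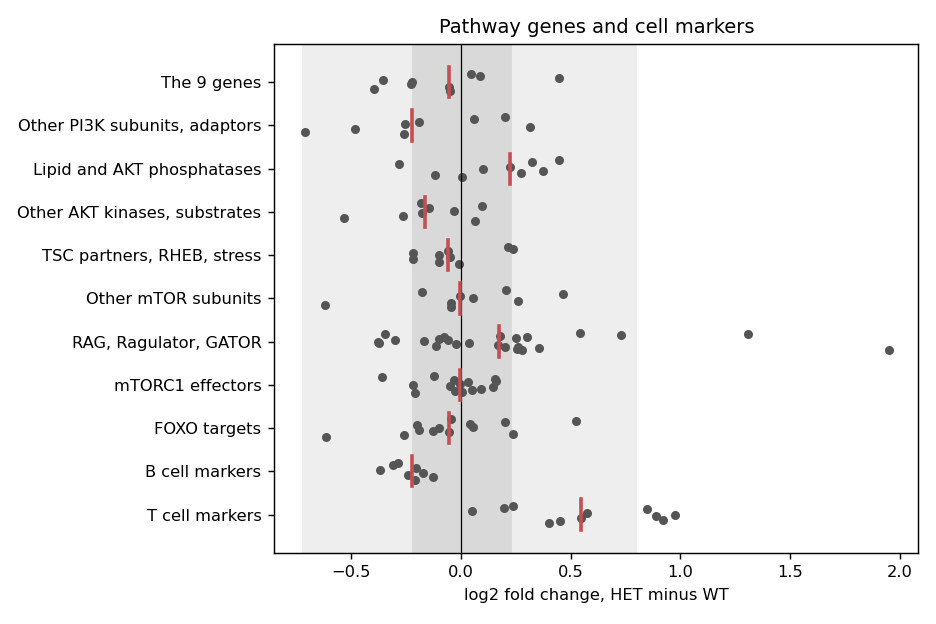
Log2 fold change of every tested gene in each list (points) with the list median (red), over bands for the middle 50% and 90% of all genes tested. The medians of the pathway lists lie between -0.22 and 0.22, while all 8 B cell markers lie below 0 and all 11 T cell markers above it.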

How the data were processed

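The authors prepared libraries of about 200 cells by an adapted SMART-Seq2 protocol, aligned reads to GRCm38 with HISAT2 2.2.1 (mm10 in the submitters' processing notes) and counted reads per gene with HTSeq. The annotation release and strand setting were not given in the sources used here. The deposited read counts were analyzed in R 4.3.3 with edgeR 4.0.16 (filterByExpr, TMM, robust quasi-likelihood F-test, group as the only factor, Benjamini-Hochberg over all 12744 genes tested, threshold 0.05). CPM values use TMM-scaled library sizes. Each standard error is the size of the log2 fold change over the root of its F statistic.

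The deposited TPM values of the authors sum to 1000000 per library. Their gene lengths matched the mean genomic span of the GENCODE M21 transcripts, introns included, within 1% for 97.8% of 7757 genes with over 50 counts in every library. Levels were therefore recomputed from the counts with merged exon lengths from GENCODE M21 (23530 symbols matched), which replaced the TPM planned for the family shares. Shares were compared by two-sided exact permutation tests over 70 arrangements.

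The members and gene lists were chosen with earlier results of these data known. All 9 members were described. In each pathway list the genes with an unadjusted p under 0.05 were named, or the 2 with the lowest p where there were fewer than 2. Some genes and family shares that the design covers are not reported here, and p-values of shares were adjusted over all 6 families tested. Scripts were tested on simulated data. Alternatives were DESeq2 1.42.0 (the study's tool), edgeR with RLE size factors, edgeR without the filter or with 50 counts on average as the minimum, a replicate block, limma 3.58.1 as voom with quality weights and as limma-trend on the authors' TPM (log2 after adding 1 or 0.1, once with genes under a mean TPM of 1 left out), immunoglobulin genes and the ribosomal RNA gene CT010467.1 left out, and each library left out. Reads carried no molecular identifiers.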

Additional observations from a re-analysis of the deposited data

Results flagged for a closer look

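A library was singled out where the gap between it and its neighbor, as a part of the range of its group of 4, passed Dixon's 95% critical value. This was so in 5 of the 62 groups of 4 values examined, where chance gives about 1 in 20. Among the 9 genes it touched only the Tsc1 share, where WT replicate 3 was at 34.95% against 44.1 to 46.04% in the other WT libraries. Among pathway genes, Pdcd4 was at 175 CPM in WT replicate 4 against 254 to 261 CPM in the others, and Rps6kb1 at 63.7 CPM in WT replicate 3 against 91.3 to 96.9 CPM. The summed antibody-secreting cell markers were at 2095 CPM in HET replicate 1 against 294 to 550 CPM, and Jchain alone gave 1576 CPM of that sum. The summed myeloid markers were at 447 CPM in WT replicate 2 against 35.7 to 91.2 CPM, and Lyz2 alone gave 399 CPM of that sum.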

How the results depend on the processing

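Under 19 alternative settings, no member had an adjusted p under 0.05, and the lowest in any setting was 0.413 (Tsc2 with DESeq2). Of 487 values of genes and shares under alternatives, 467 kept their direction and side of the threshold. None of these genes and shares had an adjusted p under 0.05 in the main setting. Shares could not reach it by sign flips or with 1 library left out. In the main setting, a share that is alone at the smallest p could not reach it either. This count is therefore no measure of robustness. Of the 9 genes, 2 had an unadjusted p under 0.05, and the count was 1 without the filter on low counts, 1 with limma-trend after adding 1 to the TPM, 1 after adding 0.1 and 1 with a mean TPM of at least 1, where 8 genes were tested and Rptor was left out. It was 3 with limma-voom and 2 with DESeq2. Leaving out single libraries gave 0 to 2, with 0 without HET replicate 2 and without WT replicate 1. Of the 91 pathway genes, DESeq2 and edgeR without the filter each called 1, Klf2 (adjusted p = 0.0159 and 0.0201), and the cause of the change in these counts was not tested. The replicate numbers did not pair the libraries (correlations of same-numbered libraries between -0.0303 and 0.0491), and with the replicate block 1 of the 9 genes, Pik3r1, had an unadjusted p under 0.05 and 6 pathway genes did. In that pairing the Pik3cd share gave the smallest p that 4 pairs allow by exact sign flips, which is above 0.05, as is the smallest p with 1 library left out.

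Directions turned for values near 0. Leaving out single libraries, the log2 fold change ranged from -0.134 to 0.0796 for Pik3cd, from -0.132 to 0.0189 for Pik3ap1, from -0.164 to 0.303 for Mtor and from -0.0591 to 0.133 for Rptor. The difference in share (percentage points, HET minus WT) ranged from -4.66 to 7.33 for Pik3r1 and from -2.94 to 4.56 for Rptor. With limma-trend, Rptor was at -0.0039 after adding 1 to the TPM and -0.0078 after adding 0.1. Without HET replicate 1 and WT replicate 4 together, each the library of its group with most antibody-secreting cell transcripts, an alternative chosen after seeing the data, Pik3cd was at 0.0248 and Rptor at -0.161. The shares by the authors' TPM and by longest transcript were also added after seeing the data. The cause was not tested for any of these turns. Low counts limit Pik3r3 (0 to 10), Pik3cb (1 to 49), Nthl1 (from 4) and Castor1 (from 20).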
